A study of Mus musculus with 4 samples.

Results

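Rn45s is the gene of the 45S pre-ribosomal RNA, the long transcript that RNA polymerase I makes in the nucleolus. Its annotated copy lies on the plus strand of chromosome 17 in the mm9 mouse genome, and all values here are for the window from 39979900 to 39985800. Every 3'READS line with its position in this window and every CLIP line with its alignment midpoint in it was taken. The window was selected on its measured read and alignment counts, which were known to be high, so its totals describe it and test nothing. It held 336 of the 236029 positions of the CU5T45 library and 251 of the 180853 positions of the oligo(dT)10-25 library. Of the distinct CLIP alignments it held 6130 of 1101047 in replicate 1 and 6070 of 1352122 in replicate 2.

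Both 3'READS libraries were made from the same RNA, a commercial mix of 11 mouse cell lines, and differ in the beads that caught the poly(A)-containing fragments. The CU5T45 oligo carries 5 U followed by 45 T, and RNA held on it was washed at low salt with formamide, then freed by RNase H digestion. The beads of the other library, oligo(dT)10-25, are those of a regular poly(A) selection kit. CstF64, which gives the cleavage stimulation factor its contact with RNA, was immunoprecipitated from UV-irradiated proliferating C2C12 cells, a mouse myoblast line, in 2 replicates whose RNA was trimmed with RNase T1. The CLIP and the 3'READS data therefore come from different cells, and no library without UV light or with another antibody was among the samples.

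The pre-rRNA is cut and trimmed into the mature ribosomal RNAs of both ribosomal subunits, and the external and internal spacers between them are degraded. Mature ribosomal RNAs carry no poly(A) tail of the kind found on mRNA. In yeast and in mouse cells, short A tails are known on by-products of ribosomal RNA processing, where a nuclear poly(A) polymerase marks them for the exosome, the cell's main 3′ to 5′ RNA-degrading complex. Ribosomal DNA is repeated many times in the mouse genome and most copies are missing from genome assemblies, so reads of other copies can align to this one and cannot be told apart from its own. Borders between spacer and mature ribosomal RNA, and sequence beside the positions, were not analysed here, because no annotation or sequence of the mm9 build was used.

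The libraries held 6738355 reads with CU5T45 and 3482826 reads with oligo(dT)10-25, and the CLIP files 1185658 and 1546401 reads. Each oligo has 1 library, so no replicate error exists for their comparison, and intervals cover counting error only. PCR copies were not marked by molecular identifiers and are not independent molecules. The CLIP replicates shared 90.8% of the alignments of replicate 1 shorter than 50 nt over the whole genome, which are 77.3% of those of replicate 2. The labels do not say whether they came from separate cultures, and they may be 1 library sequenced again. They are given singly, and their likeness is no measure of biological replication.

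Fragments of Rn45s caught by the beads were moderately abundant and lay on the transcribed strand alone. Whether they carried an added A tail or A-rich sequence of the transcript was not tested. The window held 5045 reads, 749 counts per 1e6 reads (CPM; exact 95% binomial interval 728 to 770), in the CU5T45 library. In the oligo(dT)10-25 library it held 1952 reads, 560 CPM (536 to 586). The minus strand held 0 reads in both, which allows up to 3 reads, or 0.445 CPM with CU5T45 and 0.861 CPM with oligo(dT)10-25. Among 185620 strand-specific tiles of 5900 nt of the nuclear genome with any signal, the window ranked 168 by CU5T45 reads and 210 by oligo(dT)10-25 reads. By the number of different positions used it ranked 1 in both libraries, and no other tile used more than 169 positions with CU5T45 or 130 with oligo(dT)10-25. The tile borders were set so that the window filled a single tile, while other genes can be split between tiles.

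The reads were unevenly spread along the window. The first 3000 nt of the window held 52 CU5T45 and 43 oligo(dT)10-25 reads, which are 1.03% and 2.20% of the window's reads. The next 1000 nt held 141 and 104 reads, and those from 4000 to 4999 nt held 557 and 225. The rest, from 5000 nt to the end of the window, held 4295 CU5T45 reads (85.1%) and 1580 oligo(dT)10-25 reads (80.9%). Reads thus gathered towards the 3′ part of this window in both libraries. How much of the pre-rRNA the annotated copy holds was not examined, so the 3′ part of the window need not be that of the transcript. The longest stretch without a read of either library covered 348 nt, between positions 39982562 and 39982911.

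**Figure D1:**
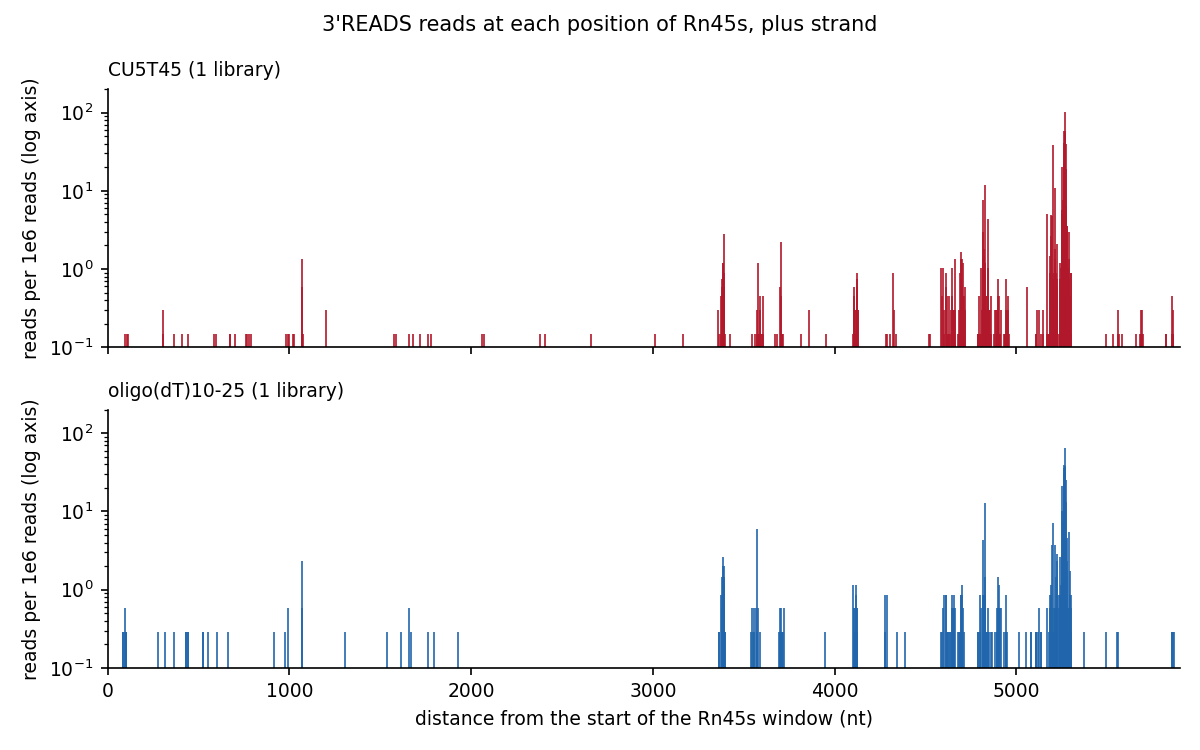
Reads per 1e6 reads (log axis) at each plus-strand position against the distance in nt from the start of the Rn45s window, with CU5T45 above oligo(dT)10-25, 1 library each; a single read is a lower bar in CU5T45, whose total is larger. Both libraries show few reads in the first 3000 nt, small groups between 3300 and 5000 nt and the highest bars near 5267 nt, where CU5T45 reached 103 CPM and oligo(dT)10-25 reached 64.3 CPM.

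Positions on the same strand were chained into clusters while the gap between neighbours was at most 24 nt. The window held 50 clusters, of which 43 had fewer than 30 reads over both libraries. The other 7 held 98.0% of the window's CU5T45 reads and 96.8% of its oligo(dT)10-25 reads. One of them, from 39984956 to 39985203, held most of the signal, with 4268 CU5T45 reads (633 CPM, 84.6% of the window) and 1571 oligo(dT)10-25 reads (451 CPM, 80.5%). It is called the main cluster below. By reads over both libraries it ranked 208 among 16636 nuclear clusters of 30 or more reads.

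The main cluster was broad and had no single dominant end. Its most used position in both libraries was 39985167, with 694 reads (103 CPM) with CU5T45 and 224 reads (64.3 CPM) with oligo(dT)10-25. That position held 13.8% of the window's CU5T45 reads (interval 12.8 to 14.7) and 11.5% of its oligo(dT)10-25 reads (10.1 to 13.0). The 7 neighbouring positions from 39985163 to 39985169 each carried at least 150 CU5T45 and 104 oligo(dT)10-25 reads. Together these 7 held 60.4% of the cluster's reads with CU5T45 and 60.7% with oligo(dT)10-25. A second group peaked 8 nt downstream at 39985175, with 265 and 89 reads, and a separate position 14 nt upstream, 39985153, had 137 and 73 reads. More than 10 nt upstream of the most used position lay 19.2% of the cluster's CU5T45 reads and 17.1% of its oligo(dT)10-25 reads, over 57 positions. More than 10 nt downstream lay 3.56% and 4.96%, over 22 positions.

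**Figure D2:**
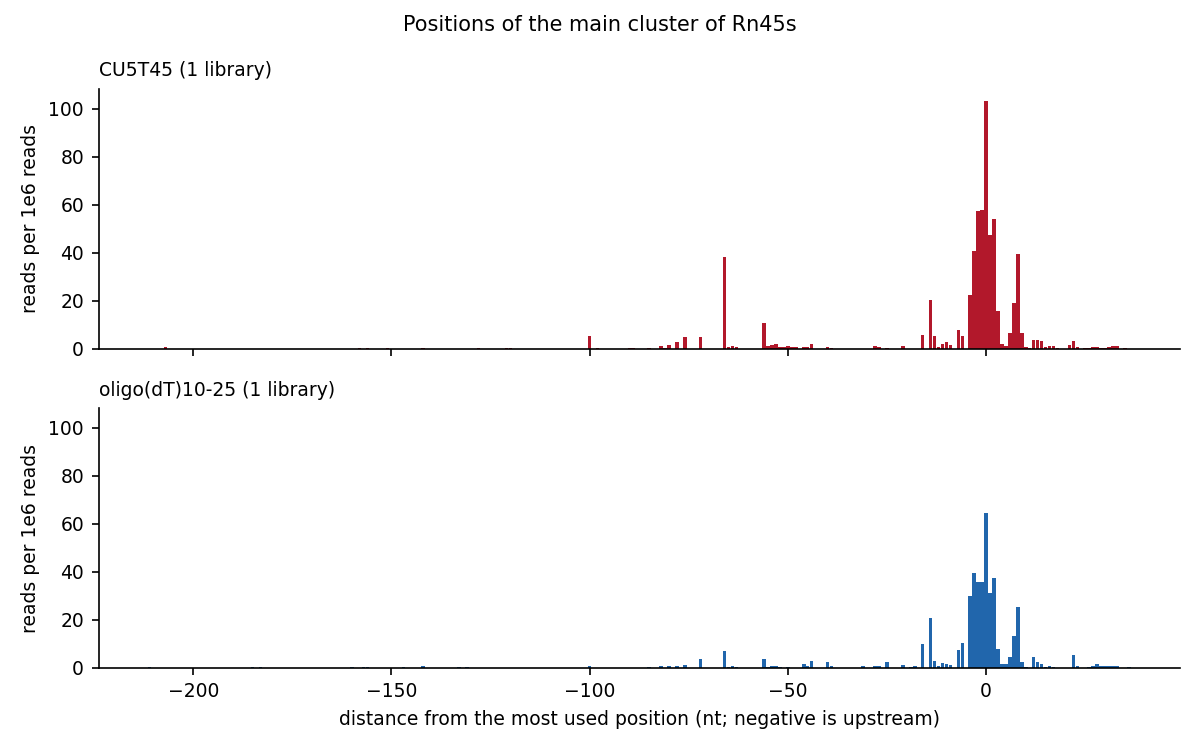
Reads per 1e6 reads at each position of the main cluster against its distance in nt from the most used position, with CU5T45 above oligo(dT)10-25 on the same scale, 1 library each. Both libraries show a block of 7 neighbouring positions around 0 and a smaller peak 8 nt downstream, and the position 66 nt upstream is high with CU5T45 (38.0 CPM) and low with oligo(dT)10-25 (7.18 CPM).

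Clusters of like abundance elsewhere were sharper. Between 2921 and 11419 reads, within 2-fold of the main cluster, lay 369 other nuclear clusters. They had a median of 13 positions over 35 nt, and the median share of reads at the top position was 73.4%. The main cluster had 98 positions over 248 nt, and its most used position held 15.7%. Among the 369, the most positions in a cluster were 39, the widest cluster spanned 191 nt, and the lowest share of a most used position was 19.4%. None of the 369 was as wide, used as many positions or was as little concentrated as the main cluster. This is a description of these libraries, since the dispersion of the ends was known when the window was chosen.

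The libraries used nearly the same ends where reads were many. Over both, 412 positions were seen, and 175 of them were in both libraries. These are 52.1% of the CU5T45 positions and 69.7% of the oligo(dT)10-25 positions, and they carried 4793 of 5045 reads with CU5T45 and 1861 of 1952 with oligo(dT)10-25. Of the 10 positions with most reads in each library, 9 were the same, and all lay in the main cluster between 39985101 and 39985175. CU5T45 needed 7 positions to reach 50% of its reads in the window, and oligo(dT)10-25 needed 8.

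The design asks whether CU5T45, whose long T stretch and stringent wash are meant to favour fragments with long A tails, and oligo(dT)10-25 measured the same RNA ends. The share of reads from the whole Rn45s window was 1.34 times as high with CU5T45 as with oligo(dT)10-25 (exact conditional 95% interval 1.27 to 1.41). The main cluster carries most of this value, since its ratio was 1.40 (1.32 to 1.49) and that of all other positions together 1.05 (0.931 to 1.19). A ratio of this size was common among abundant sites. The 369 nuclear clusters of like abundance had a median ratio of 1.24, and 133 of them (36.0%) had one at least as high as the main cluster.

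The ratio differed between parts of the window. Before 4400 nt of the window, CU5T45 had 247 reads (36.7 CPM) and oligo(dT)10-25 had 181 reads (52.0 CPM), a share 1.42-fold lower in CU5T45 (1.16 to 1.72). From 4400 nt on, CU5T45 had 4798 reads (712 CPM) and oligo(dT)10-25 had 1771 reads (508 CPM), a ratio of 1.40 (1.33 to 1.48). The intervals of these 2 stretches lie on opposite sides of 1 and do not overlap. The border at 4400 nt was set after the values were seen. By 1000 nt, the ratio was 0.452 (0.239 to 0.848) in the first, 0.707 (0.377 to 1.35) in the second, 0.701 (0.540 to 0.912) in the fourth, 1.28 (1.09 to 1.50) in the fifth and 1.41 (1.33 to 1.49) in the last 901 nt. The third had 5 CU5T45 and 0 oligo(dT)10-25 reads, too few for a ratio. The fourth, and the stretch before 4400 nt, include position 39983474, with 2 CU5T45 and 21 oligo(dT)10-25 reads. Without it both ratios would be closer to 1, and neither was computed.

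At single clusters few differences were as large as 2-fold. Over the genome, 16684 clusters had 30 or more reads, 11.1% of which were at least 2-fold higher in CU5T45 with an interval excluding 1, and 14.1% at least 2-fold lower. Of the 7 in Rn45s, 0 were higher by this rule and 1 was lower, so their share called is near that of the genome. Intervals lay above 1 for 3 of the 7, below 1 for 1 and included 1 for 3, while over all 16684 clusters 27.5% lay above 1 and 23.5% below. The cluster that was 2-fold lower, from 39983441 to 39983506, counted 28 reads with CU5T45 and 35 with oligo(dT)10-25, which is 2.42-fold lower in CU5T45 (1.43 to 4.13). A single position, 39983474, held 2 of these CU5T45 and 21 of these oligo(dT)10-25 reads. The call thus rests on it. The other positions of the cluster together held more reads with CU5T45, the larger library, than with oligo(dT)10-25. No ratio of the cluster without it was computed. With CU5T45 the most used position was another, 39983481, with 8 and 2 reads. Just upstream of this cluster, that from 39983259 to 39983296 had 76 and 56 reads, a ratio of 0.701 (0.490 to 1.01). The cluster from 39983573 to 39983620 had 30 and 12 reads, a ratio of 1.29 (0.642 to 2.77), and that from 39984004 to 39984031 had 42 and 25 reads, a ratio of 0.868 (0.517 to 1.49). These last 3 intervals include 1.

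The clusters next to the main one were higher with CU5T45 by about the same factor as it was. The cluster from 39984689 to 39984862 had 347 CU5T45 reads (51.5 CPM) and 134 oligo(dT)10-25 reads (38.5 CPM), a ratio of 1.34 (1.09 to 1.65). It held 73 positions, and its most used one, 39984726, had 80 and 44 reads. The cluster from 39984487 to 39984617 had 154 reads (22.9 CPM) and 57 reads (16.4 CPM), a ratio of 1.40 (1.02 to 1.93), spread over 53 positions of which the most used held 5.69% of its reads. Smaller clusters were near the ends of the window. From 39979985 to 39980012 lay 3 CU5T45 and 8 oligo(dT)10-25 reads, 5.16-fold lower in CU5T45 with a wide interval (1.24 to 30.2). From 39985757 to 39985766 lay 8 and 4 reads, a ratio of 1.03 (0.277 to 4.69). From 39985558 to 39985600 lay 10 and 0 reads, a ratio of 1.72 with the 0 of oligo(dT)10-25 set to a floor of 3 reads. The lower limit of its interval was 1.16. The remaining 2 of the 12 clusters with most reads, from 39980967 to 39980972 and from 39984175 to 39984245, had 15 and 10 and 12 and 8 reads, and their intervals include 1.

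**Figure D3:**
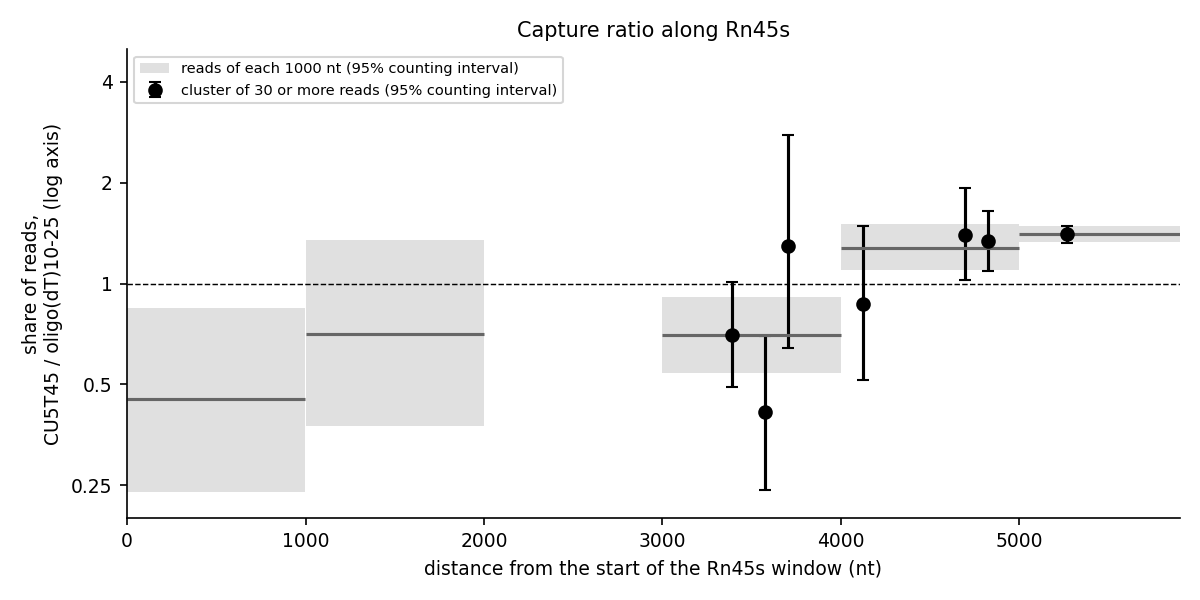
Share of reads in CU5T45 over that in oligo(dT)10-25 (log axis) against the distance in nt from the start of the Rn45s window. Points are the 7 clusters of 30 or more reads at their most used position and grey bands are stretches of 1000 nt (the last 901 nt), each with its 95% counting interval; the third stretch has no oligo(dT)10-25 reads and is left out. The grey lines lie below 1 up to 4000 nt, where the band of the second stretch includes 1, and above 1 after it.

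Positions within the main cluster also differed from each other in this ratio. Of the 28 positions of the window with 30 or more reads, 14 had an interval above 1 and 3 an interval below 1, while over the 24272 such positions of the genome 27.8% lay above 1 and 20.7% below. An interval excludes 1 more readily where reads are many, and the genome's positions were not matched for reads. Most of the 28 also belong to the main cluster, so these shares were not compared further. The ratios of the 28 ran from 0.503 to 8.79 with a median of 1.54. Position 39985101, 66 nt upstream of the most used one, had 256 CU5T45 and 25 oligo(dT)10-25 reads, 5.29 times as high in CU5T45 (3.50 to 8.33). Position 39985067 had 34 and 2 reads, 8.79 times as high (2.25 to 75.5), and 39985091 had 33 and 4 reads, 4.26 times as high (1.52 to 16.6). Next to the peak both directions occurred. Positions 39985165 and 39985166 had ratios of 1.60 (1.30 to 1.97) and 1.61 (1.31 to 1.98), and the block of 7 positions together 1.40 (1.30 to 1.51). A few nt upstream, position 39985161 had 35 and 36 reads, a ratio of 0.503 (0.306 to 0.823), and position 39985163 had 150 and 104 reads, a ratio of 0.745 (0.577 to 0.967). The most used position itself had a ratio of 1.60 (1.38 to 1.87). Single positions were picked here for their values.

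CstF64 alignments on Rn45s were more numerous than on any other of the 5900 nt tiles of the nuclear genome. The plus strand of the window held 6130 distinct alignments in replicate 1 (0.557% of its alignments) and 6070 in replicate 2 (0.449%). Counted as reads these were 17749 (1.50% of all reads) and 25866 (1.67%). The minus strand held 25 alignments in replicate 1 and 76 in replicate 2. The plus strand thus had 245 times as many alignments (166 to 379) in replicate 1 and 79.9 times as many (63.7 to 102) in replicate 2. Replicate 2 had more alignments on the minus strand than replicate 1, and the same 100 nt bin, from 3500 nt, held the most in both, 4 and 8. The window ranked 1 of 185620 tiles in each replicate, by alignments and by reads, and the next tile held 4486 alignments in replicate 1 and 5468 in replicate 2. This rank depends on tile borders set by the window, which can split other genes between tiles. It also carries no division by the amount of pre-rRNA in the cells, which was not measured.

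Alignments on Rn45s were also repeated more often and had a greater median length. Each distinct alignment had 2.90 reads on average in replicate 1 and 4.26 in replicate 2, against 1.07 and 1.13 in the rest of the genome. Alignments seen once made up 61.5% and 54.3% on Rn45s and 94.2% and 89.3% elsewhere. The highest count of any alignment outside the window was 115 in replicate 1 and 165 in replicate 2, against 315 and 609 inside it. Median lengths were 44 and 41 nt on Rn45s and 35 and 36 nt elsewhere. The longest alignments had 69 nt in replicate 1 and 57 nt in replicate 2 in and outside the window, so a fragment longer than 57 nt has other coordinates in each replicate. Alignments of this greatest length made up 6.22% on Rn45s and 3.08% elsewhere in replicate 1, and 9.80% on Rn45s and 10.3% elsewhere in replicate 2. Since alignments of the same start and end count once, a count of distinct alignments can understate a densely covered gene. Whether the repeated reads were separate molecules or PCR copies was not tested.

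The CLIP signal lay in a row of separate blocks in the 3′ part of the window. The first 3000 nt held 462 alignments (7.54%) in replicate 1 and 510 (8.40%) in replicate 2. From 3400 to 5199 nt lay 5317 (86.7%) and 5156 (84.9%). Downstream of the main cluster, in the last 597 nt, only 50 (0.816%) and 65 (1.07%) were left. Among the 59 bins of 100 nt, 58 had an alignment in both replicates, and the 6 with the highest counts in whichever replicate was lower together held 52.2% and 51.9%. The first of these, from 4800 to 4899 nt, held 963 and 900 alignments. The bin from 3500 nt held 560 and 562, that from 4600 nt 537 and 531, that from 4700 nt 433 and 467, that from 4500 nt 376 and 337, and that from 5100 nt 331 and 351. Between the blocks lay near-empty bins, such as that from 4400 nt with 13 and 19 alignments, and just upstream of the block at 3500 nt the bin from 3400 nt held 2 and 3. The longest stretch without any alignment covered 108 nt from 1359 nt in replicate 1 and 116 nt from 1351 nt in replicate 2.

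**Figure D4:**
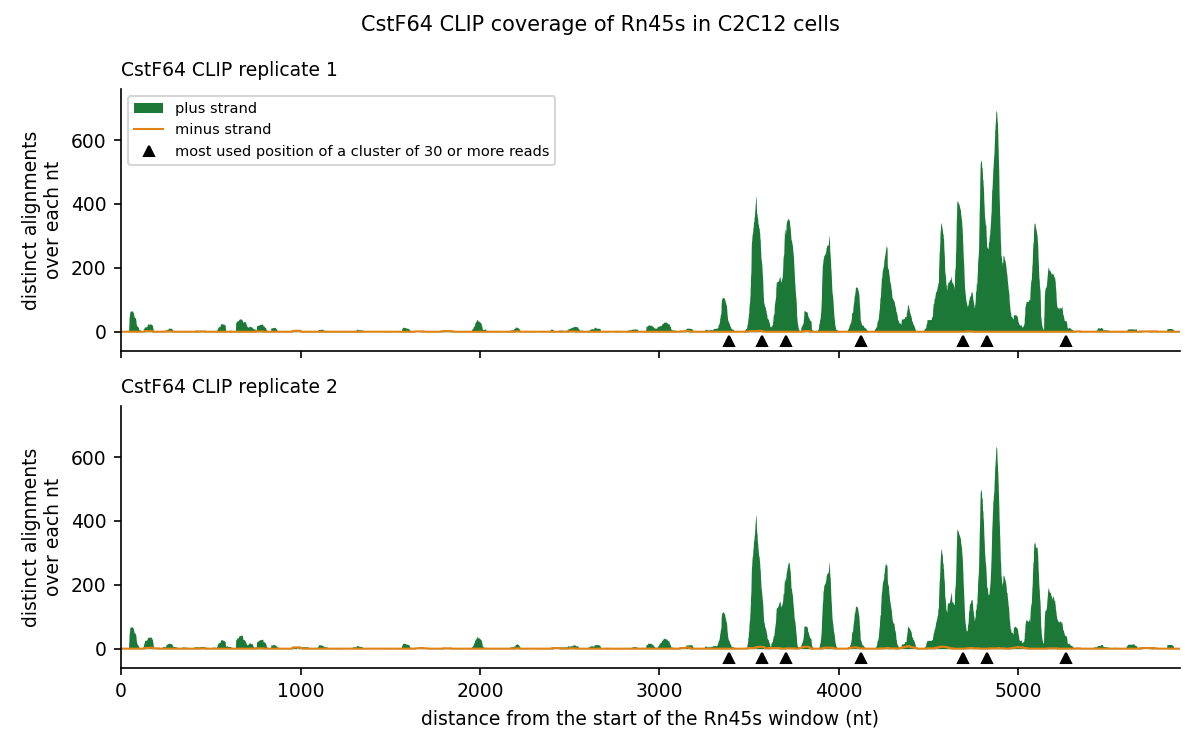
Distinct CstF64 CLIP alignments over each nt of the Rn45s window against the distance in nt from its start, on the plus strand (green) and the minus strand (orange), 1 panel per replicate. Triangles mark the most used position of the 7 3'READS clusters of 30 or more reads. Both replicates show the same blocks between 3300 and 5300 nt, the highest at 4877 nt with 693 and 633 alignments, and almost nothing after the last triangle.

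The summit of the CLIP signal was at the same nucleotide in both replicates. The highest coverage was at position 39984777 in each, with 693 overlapping alignments in replicate 1 and 633 in replicate 2. The 59 bins had a Pearson correlation of 0.996 between the replicates, as a description of bins that share their libraries. Of the alignments under 50 nt on Rn45s, 3516 were in both, which is 91.9% of those of replicate 1 and 80.1% of those of replicate 2. Of the distinct 5′ ends, 1135 were shared, 92.7% of the 1225 in replicate 1 and 93.3% of the 1216 in replicate 2.

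A few ends of alignments recurred. The 5′ end at 39984686 was used by 46 and 38 distinct alignments with 945 and 1307 reads, 5.32% and 5.05% of the window's reads. The neighbouring 5′ ends at 39984680 and 39984682 had 669 and 994 reads and 538 and 933 reads. Among 3′ ends, 39984169 was used by 45 and 37 alignments and 39984792 by 47 and 36. RNase T1 cuts RNA after G, and whether these ends follow a G was not tested, because the sequence of the build was not used. The alignment with most reads in replicate 1 ran from 39984686 to 39984755 with 315 reads. In replicate 2 the alignments with most reads ran from 39983549 to 39983606 with 609 and from 39983595 to 39983652 with 568, and the same alignments had 20 and 60 reads in replicate 1. Both have the greatest length of replicate 2. Longer fragments have other coordinates in replicate 1, so these counts are not directly comparable. Of the 5 alignments with most reads, 3 in replicate 1 had its greatest length of 69 nt and 4 in replicate 2 had its greatest length of 57 nt.

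The third comparison of the design sets CstF64 crosslinking beside the mapped 3′ ends. On Rn45s both kinds of signal shared the same stretch, but the highest of one was not the highest of the other. Within 40 nt of the most used positions of the 7 clusters, replicate 1 had 401 alignments per 100 nt and replicate 2 had 367, against 72.3 and 74.7 in the rest of the window. Pooled over the 7 ends, the density was thus 5.55 and 4.91 times that of the rest. The ends differed widely in this. The most used position of the main cluster had the fewest alignments within 40 nt, 50 and 62, which is about the density of the rest. Position 39984726 had the most, 704 and 628. Around 16629 other nuclear clusters of 30 or more reads a like ratio was 6.62 and 6.48. It was pooled over windows of the same length, each around a single end, while the 7 ends of Rn45s share their window. The values are therefore not strictly comparable. Most of the value on Rn45s came from the shared stretch: with the rest taken only from 3200 nt to the end of the main cluster, the mean of both replicates was 1.80, against 5.23 over the whole window.

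Reads and alignments were in different proportion at each cluster. The main cluster held 84.6% of the CU5T45 and 80.5% of the oligo(dT)10-25 reads of the window and 11.8% and 12.4% of its alignments. The cluster from 39984689 to 39984862, with 6.88% and 6.86% of the reads, held 22.8% and 21.9% of the alignments, and the summit of coverage lies in it, 390 nt upstream of the most used position. The bin from 3900 nt held 317 and 287 alignments and 1 read of each 3'READS library, and that from 4200 nt held 330 and 351 alignments with 2 CU5T45 and 7 oligo(dT)10-25 reads. The 7 clusters together span 733 nt, 12.4% of the window, and held 53.7% and 52.5% of the alignments.

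Near the ends, the alignments lay mostly upstream. Within 40 nt of the most used position of the main cluster, 42 midpoints were upstream and 8 downstream in replicate 1, and 51 and 11 in replicate 2. At 39983289 these were 98 and 4 in replicate 1 and 102 and 5 in replicate 2, and at 39984023 they were 127 and 5 in replicate 1 and 130 and 0 in replicate 2. In 6 of the 7 clusters more midpoints lay upstream than downstream in both replicates, and the median upstream share was 84.4% and 83.2%. Position 39983606 was the exception, with 151 upstream and 350 downstream in replicate 1 and 143 and 263 in replicate 2. Over all nuclear clusters of 30 or more reads with at least 10 alignments within 40 nt in each replicate, 53.3% of 685 had more upstream in both. The other 678 had a median upstream share of 57.1% and 59.0%. With 7 clusters in 1 gene, which share their RNA, this difference was not tested.

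The CLIP signal was already falling over the last 120 nt upstream of the main end and fell further across it. In steps of 40 nt, the midpoints from 120 nt upstream of it numbered 192, 83 and 42 in replicate 1 and 178, 97 and 51 in replicate 2, and those of the next steps, downstream of it, 8 and 3 in replicate 1 and 11 and 3 in replicate 2. From 80 to 159 nt downstream there were 0 in both. Alignments that contained position 39985167 numbered 32 in replicate 1 and 39 in replicate 2. Of all alignments in the window, 98.6% and 98.2% ended upstream of this position. Downstream of the main cluster the 3'READS libraries were as sparse, with 27 CU5T45 and 8 oligo(dT)10-25 reads.

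**Figure D5:**
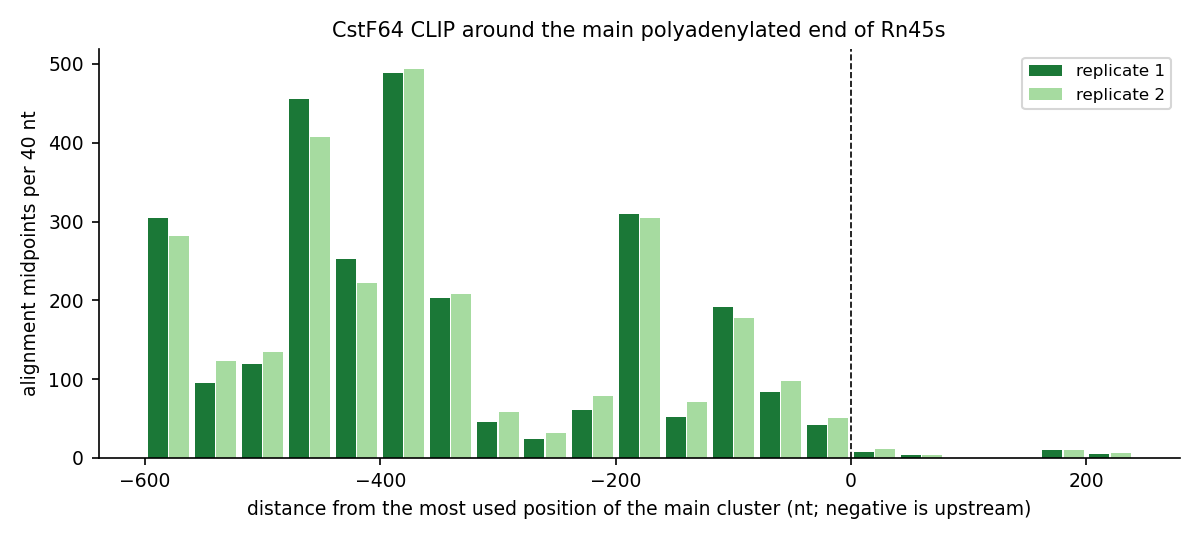
Midpoints of distinct CstF64 CLIP alignments in steps of 40 nt against the distance in nt from the most used position of the main cluster (dashed line; negative is upstream), for replicates 1 (dark) and 2 (light). The highest step, from -400 to -361 nt, held 488 and 494 midpoints, and the step just downstream of the line held 8 and 11.

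No tile of the nuclear genome came close to Rn45s in all 4 samples. Likeness was measured over the 4 samples as the distance between tiles in log2(CPM + 1) of both 3'READS libraries and log2(alignments per 1e6 + 1) of both CLIP replicates. The nearest tile, at a distance of 5.39, was on the minus strand of chromosome 19 from 5836600 to 5842499. It had 529 CU5T45 and 627 oligo(dT)10-25 reads at 23 and 10 positions, and 773 and 970 alignments. Next were the minus strand of chromosome 5 from 143660600 to 143666499, at 6.25, and the plus strand of chromosome X from 70736600 to 70742499, at 6.29. The tile on chromosome 5 had 4584 and 2068 reads, close to Rn45s, but used 23 and 25 positions and held 251 and 325 alignments. The tile on chromosome X had 805 and 820 reads at 9 positions in each library and 383 and 410 alignments. These tiles are the least unlike Rn45s and not a match. Their borders follow from those of the window and need not be borders of genes.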

How the data were processed

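The members and lists were chosen with earlier results of these data known. The deposited read counts are whole numbers, with no normalization stated per the labels: reads per cleavage position in the 3'READS files and reads per distinct alignment in the CLIP files. The submitters' processing notes name mm9, Bowtie and Novoalign without roles. Read filters, the handling of reads that align to several places and the A-tail requirement are not given in the sources used here. Positions may be 0-based or 1-based and are exact to within 1 nt; distances along the window count from 0 at 39979900.

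Depth was 6738355 (CU5T45) and 3482826 (oligo(dT)10-25) reads, and 1101047 and 1352122 distinct alignments. Positions were chained within 24 nt over the whole genome, and clusters of 30 or more reads were compared by the ratio of shares of library totals with the exact conditional binomial 95% interval. A count of 0 was set to 3 reads for a bound. Shares have Clopper-Pearson intervals. CLIP was counted by midpoint. No p-value was computed. Counts at 16684 clusters were also simulated as independent Poisson draws, which hold counting error alone. On these, the rule of 2-fold with an interval excluding 1 called 57% of clusters changed 2-fold, 100% changed 4-fold and 0.898% unchanged. The interval alone excluded 1 for 85%, 100% and 3.66%. The simulated 2-fold change equalled the threshold of the rule, so the 57% was set largely by that choice. PCR copies and differences between library preparations were not simulated, so errors in the data can be more frequent. Named items follow a rule: the 12 clusters and 10 positions per library with most reads, 6 bins, 5 alignments per replicate, empty stretches and 3 nearest tiles; the stretches, the other positions and bins named, the recurrent ends and the side of CLIP were chosen after seeing values. Tools were scipy 1.17.1, numpy 2.4.6, matplotlib 3.10.9 and pandas 2.3.3 under Python 3.11.15.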

Additional observations from a re-analysis of the deposited data

How the results depend on the processing

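The ratio of the window's share between the oligos, 1.34, was 1.30 without mitochondrial reads, 1.24 with median-of-ratios size factors, 1.03 (interval 0.868 to 1.21) with each position counted once and 1.05 (0.931 to 1.19) without the main cluster, an alternative chosen after seeing the data. No alternative turned its direction, but in these last 2 the interval includes 1. The count of clusters 2-fold higher in CU5T45 was 0 under all 6 alternatives. The count of clusters 2-fold lower, 1, was 2 with a minimum of 10 reads, 0 with 100 reads and 0 at 4-fold. CLIP alignments on the plus strand, a mean of 5028 per 1e6, were 15848 with every read counted, and 4489 to 5567 with either replicate left out. The ratio of plus to minus strand, a mean of 162.5, was 493 with every read counted, and 79.9 without replicate 1 and 245 without replicate 2. The CLIP density near the 7 ends over the rest of the window, 5.23, was 2.996 within 20 nt, 6.36 within 60 nt, 3.35 and 5.47 with alignments placed by their 5′ and 3′ ends, 8.97 with every read counted, 1.74 around all clusters of 3 or more reads and 1.80 with the rest taken from 3200 nt (chosen after seeing the data). Leaving out a replicate gave 4.91 to 5.55. The most used position held 13.1% of the pooled reads and 11.5% of the oligo(dT)10-25 reads alone. The cause of these differences was not tested. No paired analysis was possible because each oligo has 1 library and the CLIP replicates are 1 group. The 3000 nt with fewest reads limit any statement on the oligos there to large differences.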
